A study of Homo sapiens with 7 samples.

Results

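The 1 Mb window of chromosome 10 from 114000001 to 115000000 (hg19) holds TCF7L2, whose bounds were taken as 114710009 to 114927437. Its members were the regions of 4 peak lists whose midpoint lay in this window, and they numbered 83 of the 86081 regions in all lists. NKX6.1 on day 13 had 22 of them, HNF6 on day 10 had 52, GATA6 on day 10 had 9 and HNF6 on day 5 had 0. The window was chosen by its number of NKX6.1 regions in these same data, so its NKX6.1 count and rank are a description and support nothing. Of the 83 regions, 20 had their midpoint inside TCF7L2.

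The lists came from chromatin immunoprecipitation and sequencing of CyT49, an established human embryonic stem cell line differentiated in culture toward pancreas. The NKX6.1 library was from day 13, labelled PP stage. The HNF6 and GATA6 libraries of day 10 were labelled PE stage, a stage at which NKX6.1-positive cultures are called pancreatic progenitors per the labels' protocols, and the HNF6 library of day 5 was labelled GTE stage, for gut tube endoderm. No genetic change or added agent distinguished the groups in the labels, and the share of cells in each culture that had reached its stage was not given in the sources used here. With 1 library in each group, no value could be set against a spread between replicates, and no test gives a p-value. The lists differ at once in factor or day, antibody and library, and these cannot be told apart. The day 13 libraries also have sample numbers apart from the others and titles that do not name CyT49. This difference goes with NKX6.1 and cannot be told apart from it. The 3 input libraries, of days 5, 10 and 13, were not analysed here.

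TCF7L2 encodes a DNA-binding protein of the TCF/LEF family that recruits beta-catenin and so carries the nuclear step of canonical Wnt signalling. Common variants inside the gene are among the best known genetic associations with type 2 diabetes, and the protein acts in pancreatic islets, liver and gut. NKX6.1 is a homeobox protein that marks pancreatic progenitors and persists in insulin-producing beta cells. HNF6, also called ONECUT1, carries a cut domain and a homeodomain and acts in liver and pancreas development, and GATA6 is a zinc finger factor required for pancreas formation in humans. In RefSeq's gene order (GRCh38.p14), the protein-coding genes before TCF7L2 are TECTB, ACSL5, ZDHHC6 and VTI1A, and the next after it is HABP2. These names give the order of neighbours only, since no hg19 annotation was used here to place regions in genes other than TCF7L2.

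The first base of TCF7L2 was covered by HNF6 and by GATA6 regions of day 10. The HNF6 region ran from 114709853 to 114710714, which is 156 bases before to 705 bases after the gene's first base. The GATA6 region ran from 114709851 to 114710105, which is 158 bases before to 96 bases after it. RefSeq lists 3 promoters for TCF7L2, and the one at the gene's first base is therefore shown, from 250 bases before to 50 bases after the start in RefSeq, read 5′ to 3′ on the plus strand at chr10:112949997-112950296 (GRCh38.p14). Capitals mark each TAAT or its complement ATTA, the core recognised by many homeodomain proteins. Positions of the 2 builds were not converted, so the region bounds and the sequence are related only through the gene's first base, which may differ slightly between annotations.
TCF7L2 promoter: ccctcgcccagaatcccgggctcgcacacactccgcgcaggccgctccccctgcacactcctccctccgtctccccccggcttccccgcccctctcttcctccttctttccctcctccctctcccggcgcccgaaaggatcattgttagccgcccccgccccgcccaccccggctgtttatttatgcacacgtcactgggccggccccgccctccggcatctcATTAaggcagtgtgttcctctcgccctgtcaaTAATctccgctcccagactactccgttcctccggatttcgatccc

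This sequence held the homeodomain core at 27 bases before the start and at 5 bases after it, searched on both strands. Of the 35116 RefSeq promoters of the same length, 50.2% held that core. It held neither GATA (TATC on the other strand), found in 49.7% of the promoters, nor the HNF6 cores ATCGAT and ATCAAT on either strand, found in 6.96%. A match is a description of letters, and the absence of one says only that these letters are not in this stretch. G and C made up 65.7% of its bases, against a median of 58.7% over all promoters. The other RefSeq promoters of the gene lie 176.4 and 179.0 kb after this one (GRCh38.p14) and were not placed among the hg19 regions. The first of them held 4 homeodomain cores and 3 GATA cores, the second 0 homeodomain and 2 GATA cores, and neither held an HNF6 core. Sequences of the other regions were not used here.

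NKX6.1 regions were spread over the whole window, and most lay outside TCF7L2. Of the 22, 7 lay inside the gene, 14 before it and 1 after it. The gene takes up 21.7% of the window and held 31.8% of its NKX6.1 regions (Wilson 95% interval 16.4 to 52.7, for counting error only, since regions are not independent samples). Inside the gene this came to 3.22 regions per 100 kb, and in the window outside the gene to 1.92. The interval includes the gene's share of the window, so whether NKX6.1 regions are concentrated in the gene was not detectable with 22 regions. HNF6 had 12 of its 52 regions inside the gene (23.1%, 13.7 to 36.1), or 5.52 per 100 kb inside and 5.11 outside. GATA6 had 1 of 9 inside (11.1%, 1.99 to 43.5), and its region at the gene's start counted as before it because the midpoint lay 5′ of the first base.

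**Figure D1:**
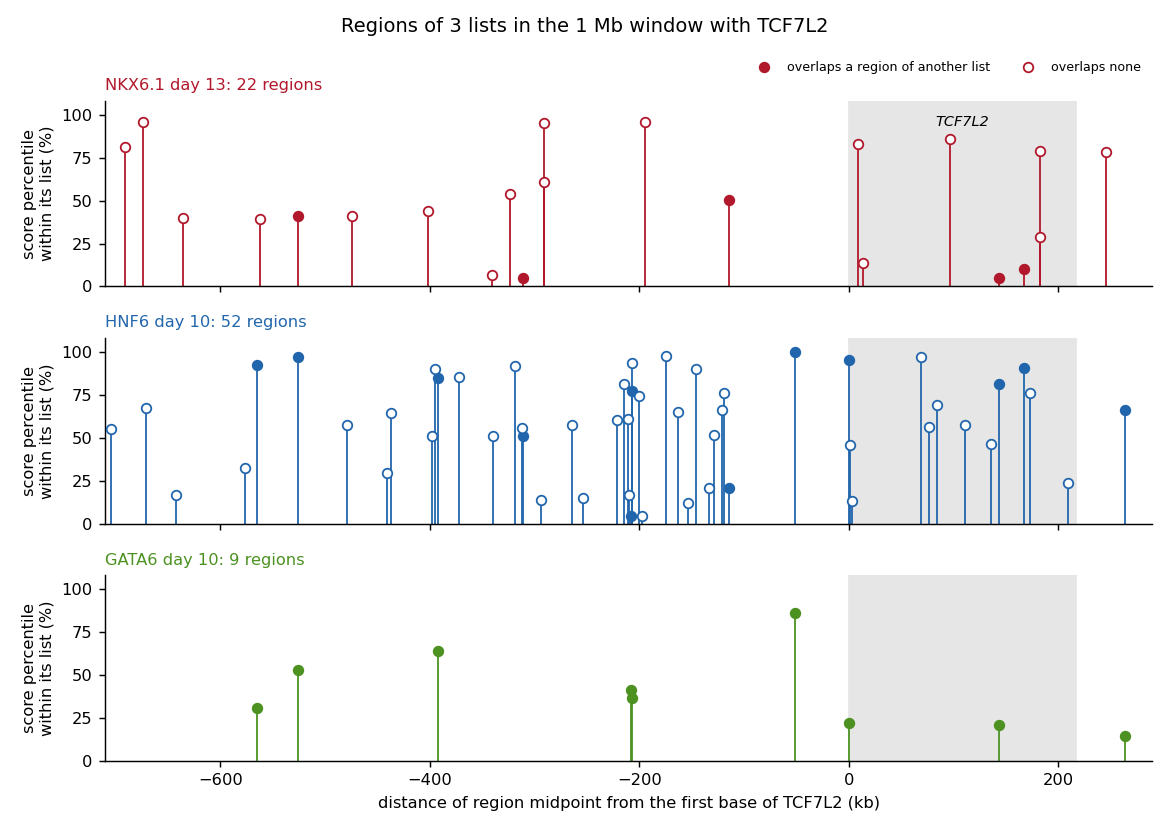
Each stem is a region, placed by the distance of its midpoint from the first base of TCF7L2 (kb) and as tall as its score percentile within its own list (%); grey marks the gene, filled points overlap a region of another list and open points overlap none. NKX6.1 (22 regions) is spread along the window, the highest HNF6 stem (99.8) and the highest GATA6 stem (86.0) stand together 51.1 kb before the gene, and the filled NKX6.1 points all lie at or below 50.5.

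The score is the authors' own value per peak and was used only to rank regions within a list. Its percentile is the percent of regions in that list with the same score or a lower one. The NKX6.1 regions of the window were of middling strength, with scores of 17 to 267, a median of 51.5 and a median percentile of 47.2 (quartiles 31.5 and 80.7), against a median score of 55 in the rest of the list. Above the list's median score were 10 of 22 (45.5%), against 49.5% of the rest. The window's NKX6.1 count was thus made of regions spread from percentile 4.8 to 95.9 of the list, with 3 in its highest decile. The strongest of them ranked 603 of 14627, and the highest score in the list was 1398, so the list's very strongest regions were not among them.

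Those 3 strongest NKX6.1 regions all lay before TCF7L2. The strongest ran from 114035678 to 114035843, 674.2 kb before the gene, with a score of 267 (percentile 95.9). The region from 114515938 to 114516070, 194.0 kb before the gene, had a score of 255 (95.5), and that from 114418671 to 114418947, 291.2 kb before it, had a score of 243 (95). None of the 3 overlapped a region of another list. The lowest score in the window, 17 (percentile 4.8), was that of the regions from 114398953 to 114399028 and from 114853502 to 114853581, both of which lay at an HNF6 region.

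Inside TCF7L2, the 7 NKX6.1 regions began 9.2 kb after the gene's first base, and none lay at its start. The first pair, from 114719130 to 114719290 (score 113, percentile 82.7) and from 114723952 to 114724027 (score 25, 13.8), lay 9.2 and 14 kb into the gene. The strongest of the 7 ran from 114806696 to 114806819, 96.7 kb in, with a score of 128 (85.7). The regions at 143.5 kb (114853502 to 114853581, score 17) and at 167.4 kb (114877406 to 114877497, score 22, percentile 10.4) were low in the list. They were also the only NKX6.1 regions in the gene that met HNF6. A close pair ended the series, from 114892444 to 114892525 (score 36, percentile 29.0) and from 114892788 to 114892943 (score 100, 79.1), with midpoints 0.381 kb apart and 182.5 and 182.9 kb into the gene. The median percentile of the 7 was 29.0, against 50.5 for the 15 in the window outside the gene.

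Outside the gene, the NKX6.1 regions not yet named had scores from 19 to 107. The 1 region after TCF7L2, from 114955705 to 114955841, had a score of 97 (percentile 78.5) and lay 28.3 kb past the gene's last base. The longest stretch without an NKX6.1 midpoint ran for 123.5 kb, from 114595691 to 114719210, and held the start of TCF7L2. Within it lay the strongest HNF6 and GATA6 regions of the window. A second NKX6.1 midpoint lay within 1 kb for 4 of the 22 regions (18.2%, 7.31 to 38.5), which form the close pair inside the gene and another before it, at 114418671 to 114418947 and 114419201 to 114419372. Over the whole NKX6.1 list the share was 3.03%. The choice of a window with many NKX6.1 regions can also raise this share, and nothing is read from it.

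HNF6 regions of day 10 had higher scores in the window than in the rest of their list. Their scores ran from 24 to 2337 with a median of 104.5, against 79 in the rest of the list, and 37 of 52 (71.2%) lay above the list's median, against 49.7%. They were also wider, with a median of 293 bp against 261 bp. In the highest score decile were 9 of the 52, of which 3 lay inside TCF7L2. The HNF6 list was not used to choose the window, but HNF6 and NKX6.1 counts rose together over windows (Spearman's rho 0.709, 3061 windows). The choice was therefore not independent of HNF6 counts, and no test applied with 1 library.

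The strongest HNF6 region of the window ran from 114658624 to 114659220, 51.1 kb before TCF7L2. Its score of 2337 ranked 148 of 64919 in the list (percentile 99.8), and a GATA6 region from 114658718 to 114659050, the strongest GATA6 region of the window (score 386, percentile 86.0), lay within it. The next by HNF6 score was the region from 114535640 to 114536026, 174.2 kb before the gene, with 1108 (97.9). The region from 114779315 to 114779753 followed, 69.5 kb into the gene, with 899 (97.0). Neither of these overlapped GATA6 or NKX6.1. The region over the gene's start had a score of 673 (percentile 95.1) and was, at 862 bp, the widest HNF6 region of the window and the only one that the authors split into 2 rows. It was followed by weaker HNF6 regions 1.3 kb (score 71, percentile 45.7) and 2.7 kb (score 34, 13.1) into the gene. The lowest HNF6 score, 24 (percentile 4.3), was found from 114501943 to 114502134 and from 114512660 to 114512841.

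HNF6 regions were unevenly spread before the gene, where their density (5.49 per 100 kb) was close to that inside it (5.52). Of the 10 stretches of 100 kb in the window, that from 114500001 to 114600000 held the most, 15. The 100 kb that followed held the fewest, 1. How common such counts are elsewhere in the genome was not examined. Within 25 kb, 9 HNF6 regions stood between midpoints 114488647 and 114512750, with scores from 24 to 575. That bunch held 2 GATA6 regions and no NKX6.1 region. The nearest NKX6.1 region, from 114515938 to 114516070, was one of the 3 strongest of the window and lay 3.25 kb beyond its last member. Inside TCF7L2, no HNF6 midpoint was found for 66.8 kb after 114712710, the longest gap in HNF6 regions of the window, and both early NKX6.1 regions of the gene lay in that gap.

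NKX6.1 regions overlapped HNF6 regions of day 10 by at least 1 bp in 5 of 22 (22.7%, Wilson interval 10.1 to 43.4). In the whole list the share was 14.3%, which lies inside that interval, so a difference was not detectable with 22 regions. Inside TCF7L2 the count was 2 of 7 and in the window outside it 3 of 15. Listed GATA6 regions were met by 2 of the 22 (9.09%, 2.53 to 27.8), against 5.18% of the whole list. Seen from HNF6, 5 of 52 regions (9.62%, 4.18 to 20.6) met NKX6.1, against 3.20% of the whole list. That background lies below the interval, but the window was chosen for a high NKX6.1 count, which raises this share by itself, and nothing is read from it.

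The 5 NKX6.1 regions at HNF6 had scores of 17, 17, 22, 47 and 55, none above the list's median of 55. Their median of 22 (median percentile 10.4) stood against 64 (60.9) for the 17 without HNF6. In the whole NKX6.1 list the medians were 72 (67.0) for regions at HNF6 and 52 (47.9) for the others. Put as shares, 0 of the 10 NKX6.1 regions above the list's median score met HNF6 in the window (interval 0 to 27.8%), against 18.1% over the list, which lies inside the interval, so a difference was not detectable with 10 regions. At or below that score it was 5 of 12 (41.7%, 19.3 to 68.0), against 10.7% over the list. That background lies below the interval, but the median is only 1 possible cut of the 22 regions. The window also held 2.45 times the mean HNF6 count of other windows, whose part in this share was not tested, and nothing is read from it. The 5 HNF6 regions at these sites had a median HNF6 score of 221, and the 47 HNF6 regions of the window without NKX6.1 one of 104, beside 213 and 78 over the whole list.

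The 17 NKX6.1 regions without an overlap lay a median of 4.58 kb from the nearest HNF6 midpoint (0.954 to 17.7 kb), and 9 of them (52.9%) had one within 5 kb. Over the list the median was 12.5 kb and the share 27.5%. The window held 2.45 times as many HNF6 regions as the mean of the other windows, and the part of that count in these distances was not tested.

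**Figure D2:**
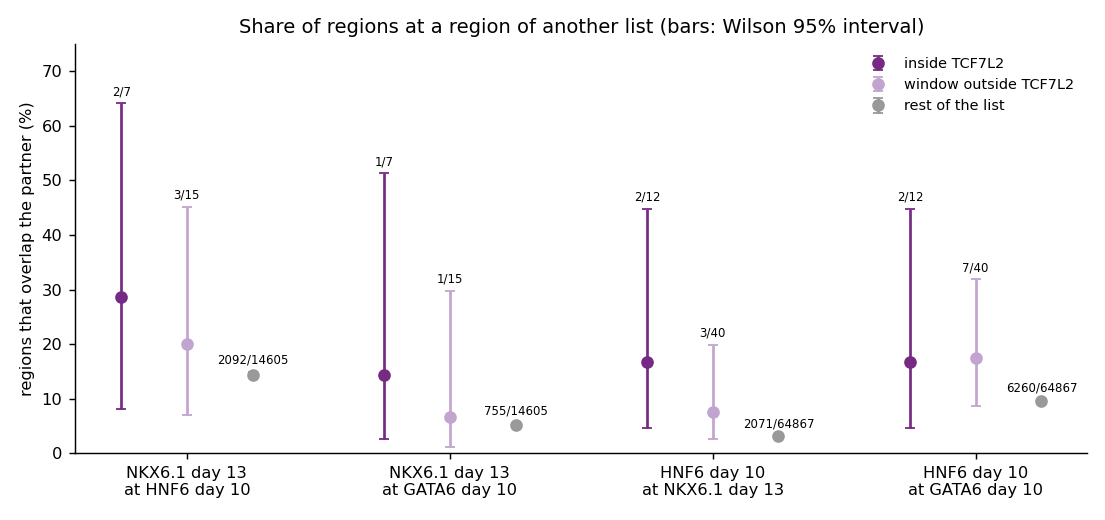
Points give the percent of regions of the first-named list that overlap a region of the second by 1 bp, with Wilson 95% intervals, for regions inside TCF7L2, in the window outside TCF7L2 and in the rest of the list; the counts stand above each interval. The intervals inside the gene are wide (8.22 to 64.1% for NKX6.1 at HNF6, 2 of 7), and those of NKX6.1 regions inside and outside the gene overlap each other.

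NKX6.1, HNF6 and GATA6 regions met at 2 sites of the window. The site before the gene comprised HNF6 from 114183927 to 114184416 (score 893, percentile 96.9), GATA6 from 114184100 to 114184452 (score 109, percentile 52.6) and NKX6.1 from 114184290 to 114184481 (score 47, percentile 40.9). Its NKX6.1 midpoint lay 525.6 kb before TCF7L2 and 214 bp from that of HNF6. The site inside TCF7L2, 143.5 kb from its first base by the NKX6.1 midpoint, comprised HNF6 from 114853257 to 114853584 (score 221, percentile 81.3), GATA6 from 114853395 to 114853613 (score 49, percentile 21.0) and NKX6.1 from 114853502 to 114853581 (score 17, percentile 4.8). There the NKX6.1 region lay wholly within both others, with its midpoint 37 bp from that of GATA6. At both sites the percentile within its own list was higher for HNF6 than for the other factors. Over the whole list, HNF6 regions at GATA6 had a median percentile of 82.5 and those at NKX6.1 one of 80.4. A high HNF6 percentile was thus usual at shared regions and not particular to these 2 sites. Counted as HNF6 regions that met both other lists, these sites were 2 of the 745 in the series. They made up 2 of 52 HNF6 regions in the window (3.85%), against 745 of 64919 (1.15%) in the whole list. Of the 3061 windows of 1 Mb, 2455 held no such region, 503 held 1 and 80 held 2. Counts of 3, 4, 5 and 6 were found in 14, 6, 2 and 1 windows. The choice of a window with many NKX6.1 regions, and its many HNF6 regions, can raise these values. HNF6 also overlapped all 6285 listed GATA6 regions of the series. A listed GATA6 region that met NKX6.1 was therefore at HNF6 in any case, and nothing is read from these values.

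The other 3 NKX6.1 regions at HNF6 lacked a listed GATA6 region. That from 114398953 to 114399028 lay inside an HNF6 region of middling score (114398778 to 114399297, score 80, percentile 51.1). That from 114595633 to 114595749 (score 55, percentile 50.5) lay inside an HNF6 region with a lower percentile than its own (114595628 to 114595823, score 41, 20.5), the only one of the 5 sites where this was so. That from 114877406 to 114877497, in TCF7L2, lay inside a strong HNF6 region (114877324 to 114877833, score 414, percentile 90.7).

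Each of the 9 listed GATA6 regions met HNF6, as did 100% of the 6285 GATA6 regions listed in the series, so this count says nothing about the window. Counted from HNF6, 9 of 52 (17.3%, 9.38 to 29.7) met GATA6, against 9.66% of the whole list, a background inside the interval. The GATA6 regions were weaker than the rest of their list, with a median score of 71 against 102, and 3 of 9 above the list's median. Apart from the regions already given, the GATA6 regions lay from 114145017 to 114145212 (score 63), 114318173 to 114318394 (score 153), 114501876 to 114502160 (score 81), 114502545 to 114502894 (score 71) and 114973521 to 114973723 (score 41, the lowest). By HNF6 score, the 9 regions at GATA6 had a median of 277 and the 43 without it one of 96, beside 235 and 77 over the whole list. Of the 9 GATA6 regions, 2 met NKX6.1 (22.2%, 6.32 to 54.7), against 11.8% of the list. The GATA6 list was incomplete: the listed peaks of the window were numbered from 2521 to 2541. Of these 21 numbers, 12 were not listed and not analysed here. The listed share was 42.9% of the numbers in this span, beside 32.4% over all numbers of the GATA6 list (6285 of 19404). The span begins and ends at a listed peak, and unlisted peaks of the window beyond it are not counted. This can raise the 42.9%, so the 2 shares are not compared.

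HNF6 on day 5 had no region in the window, and 0 of its 52 HNF6 regions of day 10 met a day 5 region, against 0.347% of the whole list. The nearest day 5 region, from 119304008 to 119304182 (score 43), lay 4.3 Mb after the window, and chromosome 10 held 8 day 5 regions in all. An absence of day 5 regions was usual, since 2837 of 3061 windows (92.7%) held none.

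Set beside all 1 Mb windows placed end to end over the genome, the TCF7L2 window had the highest NKX6.1 count. Its 22 regions stood against a mean of 4.77 and a median of 4 in the other windows, of which the highest held 20. By HNF6 regions of day 10 it ranked 47 of 3061, with 52 against a mean of 21.2 (highest 84). By GATA6 regions it ranked 14, with 9 against a mean of 2.05 (highest 15). Since the list holds GATA6 regions only where HNF6 is, GATA6 counts of windows are tied to their HNF6 counts. On chromosome 10, 1 of the 136 windows held more HNF6 regions (55) and none held more GATA6 regions.

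**Figure D3:**
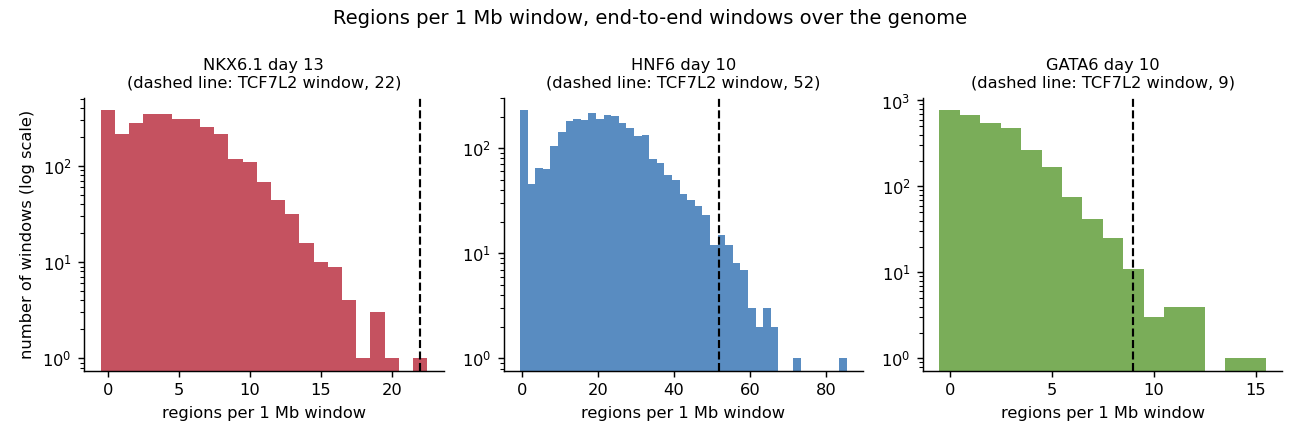
Histograms of the number of regions per 1 Mb window (x axis) over 3061 windows, with the number of windows on a log scale (y axis) and bins of 1 region, or 2 for HNF6. The dashed line marks the TCF7L2 window, which is the last bar for NKX6.1 (22) and lies within the upper tail for HNF6 (52) and GATA6 (9).

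The first place by NKX6.1 count depended on where the windows were set. With window starts moved by 0.5 Mb, the locus was divided between a window of 17 NKX6.1 regions from 114.5 to 115.5 Mb, which ranked 9, and one of 13 from 113.5 to 114.5 Mb, which ranked 46. With 1 Mb windows at every 0.1 Mb, the 8 windows that held the whole gene had 15 to 22 NKX6.1 regions, whereas 4 windows elsewhere had more. All 4 were on chromosome 15, with 24 regions from 36.5 to 37.5 Mb, 23 from 36.4 to 37.4 Mb, and 23 each from 53.3 to 54.3 Mb and from 53.4 to 54.4 Mb. With windows of 0.5 Mb, the one that holds TCF7L2 had 10 NKX6.1 regions and ranked 15 of 6114, and the one before it had 12 and ranked 6 (highest 17 in the genome). With regions above the median score alone, the window held 10 and ranked 5. The window is therefore described here as one of the densest in NKX6.1 regions, and the name of densest holds for the end-to-end grid.

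The next windows by NKX6.1 count differed from one another in the other lists. Chromosome 15 from 53000001 to 54000000 had 20 NKX6.1, 84 HNF6 and 12 GATA6 regions, the highest HNF6 count of any window. Chromosome 1 from 88000001 to 89000000 had 19 NKX6.1, 30 HNF6 and 5 GATA6 regions. Chromosome 15 from 37000001 to 38000000 had 19 NKX6.1, 51 HNF6 and 6 GATA6 regions, and chromosome 7 from 14000001 to 15000000 had 19 NKX6.1, 52 HNF6 and 9 GATA6 regions, the same HNF6 and GATA6 counts as the TCF7L2 window. Chromosome 4 from 96000001 to 97000000 had 18 NKX6.1, 59 HNF6 and 6 GATA6 regions. The share of NKX6.1 regions at HNF6 in these 5 windows was 30.0%, 5.26%, 26.3%, 26.3% and 22.2%, in the order given, beside 22.7% in the TCF7L2 window.

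NKX6.1 and HNF6 counts rose together over windows, with a Spearman's rho of 0.709 across 3061 windows, and NKX6.1 and GATA6 counts had a rho of 0.515. Windows are not independent replicates, and both counts of a window share its mappable length, so the rho is a description. The TCF7L2 window had 42.3 NKX6.1 regions per 100 HNF6 regions, against 22.5 over the whole lists. In the 5 next windows, in the order given above, NKX6.1 regions per HNF6 region were 0.238, 0.633, 0.373, 0.365 and 0.305, beside 0.423 here. Among the 115 other windows with 45 to 60 HNF6 regions, the NKX6.1 count ran from 3 to 19 with a median of 8, and the GATA6 count from 0 to 14 with a median of 5. The window was chosen by its NKX6.1 count, which raises its place in these NKX6.1 comparisons by itself, and nothing is read from them.

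**Figure D4:**
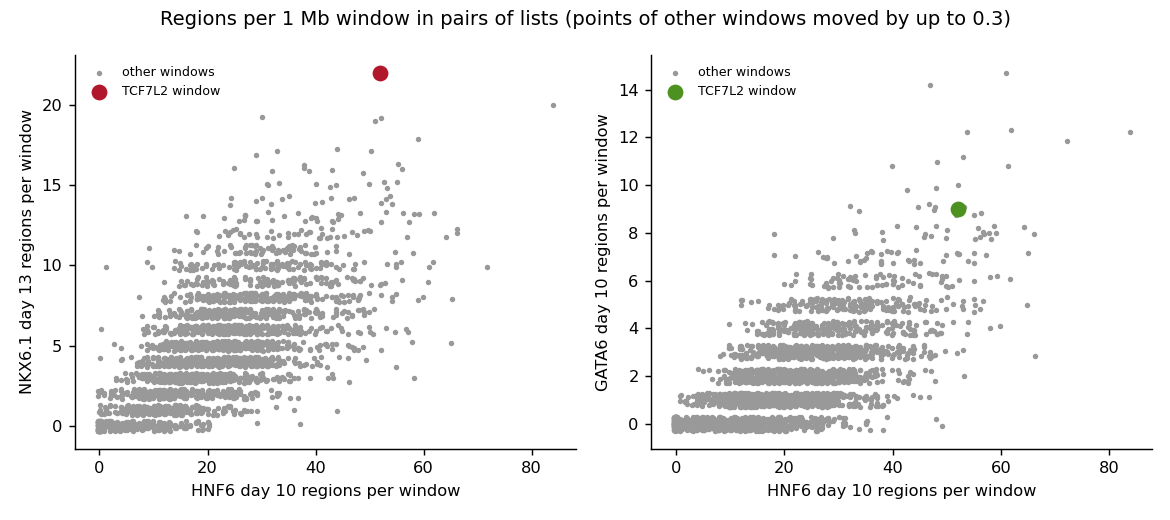
Each grey point is a 1 Mb window, placed by its HNF6 day 10 regions (x axis) and its NKX6.1 (left) or GATA6 regions (right, y axis), and moved by up to 0.3 so that points do not hide each other. The TCF7L2 window, at 52 HNF6 regions, stands at the top of the NKX6.1 panel (22) and among other points in the GATA6 panel (9), where every listed region also overlaps HNF6.

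The high count did not extend to both neighbouring windows. The window just before had 3 NKX6.1, 14 HNF6 and 1 GATA6 regions, and the one just after had 10 NKX6.1, 40 HNF6 and 5 GATA6 regions. Over the 40 windows within 20 Mb on either side, NKX6.1 counts ran from 0 to 14 (median 4), HNF6 counts from 7 to 41 (median 21) and GATA6 counts from 0 to 5 (median 1). At the window's edges, the first NKX6.1 region inside lay 19 kb from the edge (score 107) and the last 44.2 kb from it (score 97). The nearest outside lay 215.6 kb before the window (score 37) and 28 kb after it (score 34).

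**Figure D5:**
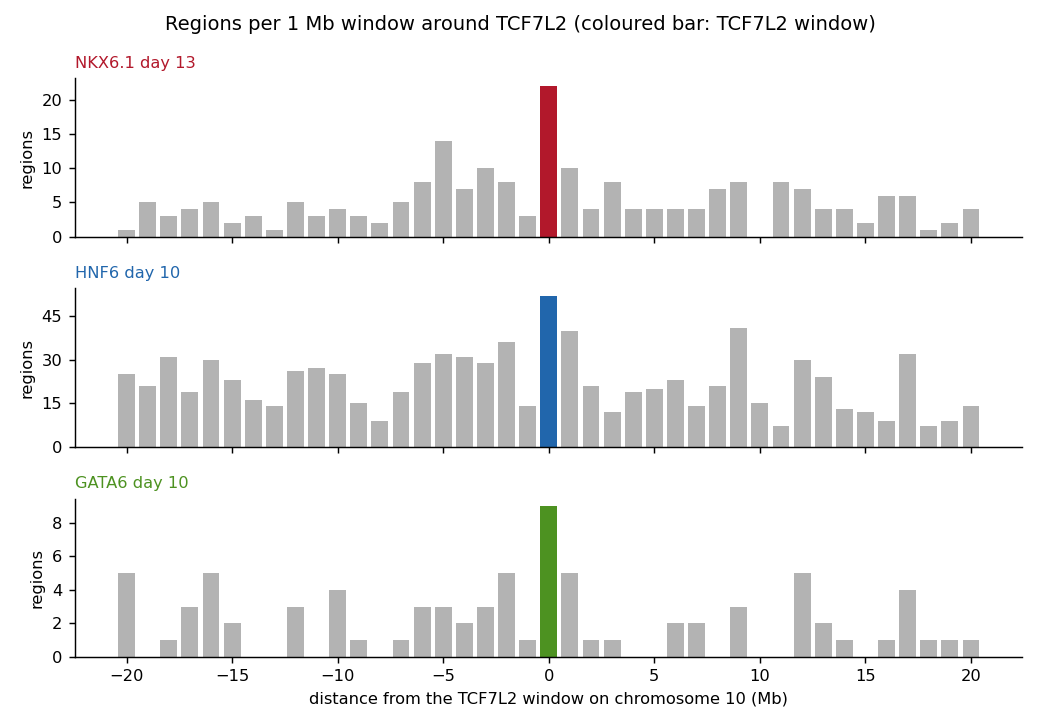
Bars give the number of NKX6.1, HNF6 and GATA6 regions (y axis) in each 1 Mb window of chromosome 10 by its distance from the TCF7L2 window in Mb (x axis), with that window coloured. Its bars, at 22, 52 and 9, are the highest of each panel, and the window just before it holds 3, 14 and 1.

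TCF7L2 by itself, 217429 bp long, was also among the denser stretches for NKX6.1. Of 14046 windows of the gene's length placed end to end over the genome, 17 (0.121%) held 7 or more NKX6.1 regions, with a mean of 1.04 and a highest count of 9. For HNF6, 672 (4.78%) held 12 or more, with a mean of 4.62. For GATA6, 4472 (31.8%) held at least the 1 region found in the gene. The NKX6.1 values again describe the count by which the window was chosen.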

How the data were processed

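Peak lists of 4 libraries were analysed. Bowtie2 2.3.4.1, MACS2 2.1.1.20160309 and hg19 are named, per the submitters' processing notes, without saying how each was used. In each list the authors deposited the position, name and score of every peak for 1 library, and the score's unit is not stated. The lowest score was 13 (22 for HNF6 day 5). Filters, the use of the inputs and read depth are not given in the sources used here, and a deeper library would list more regions. Per the labels' protocols, an NKX6.1 antibody was used for all samples, whereas the antibody characteristic names the factor of each list.

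Rows that share coordinates were counted once, at their highest score, leaving 14627 NKX6.1, 64919 HNF6 day 10, 6285 GATA6 and 250 HNF6 day 5 regions. Coordinates are 1-based. Regions were placed by midpoint, overlap was counted from 1 bp, and windows ran to the farthest position in any list (Python 3.11.15, numpy 2.4.6, pandas 2.3.3, scipy 1.17.1). The bounds of TCF7L2 came with the rule that defined the window. Regions named are those overlapping another list, those of NKX6.1 inside TCF7L2, the 3 highest and the lowest scores of each list, the regions at the gene's start and at the window's edges, and the 5 next windows. The window and these choices were made with earlier results of these data known. The code was tested on simulated data. The hg19 sequence of regions and genes other than TCF7L2 were not used here.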

Additional observations from a re-analysis of the deposited data

How the results depend on the processing

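Of 24 alternative values, 14 moved by no more than 1.5 times (counts and ranks) or within the interval or spread of the reported value (shares and percentiles), and 10 moved further. Restricting each list to regions above its median score left 10 NKX6.1 regions in the window, 3 in TCF7L2 and 3 GATA6 regions. It also gave 0 of 10 (0.0%) NKX6.1 regions at HNF6 and 3 of 37 (8.11%) HNF6 regions at GATA6. This limit shortens every list by construction. With as many of the strongest HNF6 regions as there are NKX6.1 regions, the window held 15 HNF6 regions and ranked 19. The rank by NKX6.1 count was 1 as reported and with every deposited row, 9 with window starts moved by 0.5 Mb, 15 with windows of 0.5 Mb, 5 above the median score and 5 with windows every 0.1 Mb, the last added after seeing the data. Sharing defined by 50% of the shorter region, by midpoints within 200 bp or, for NKX6.1 at HNF6, by any part within 1 kb gave 22.7%, 18.2% and 27.3% of NKX6.1 regions at HNF6, and the first of these definitions gave 17.3% and the second 15.4% of HNF6 regions at GATA6. No paired analysis was possible because each group had 1 library and no test was run. Intervals cover counting error only, and weak regions below each list's lowest score are unknown.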
